A study of Mus musculus with 26 samples.

Results

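The genes described here are 38 interferon-stimulated genes, taken as a fixed list of symbols and matched to Ensembl identifiers among the 55416 that the aortic count tables list and the 55414 of the mesenteric tables. All 38 were found in every table, and all 38 passed the filter on low counts in the aorta, in the mesenteric arteries and in the fit of both tissues. They were followed in poly(A) RNA of the aorta, a large elastic artery, and of the mesenteric arteries, the small muscular branches that feed the gut. The animals were male mice of the C57BL6J background, 12 to 14 weeks old when treatment began. All of them, the controls included, carried loxP-flanked (floxed) alleles of Sphk1, the gene of sphingosine kinase 1. Sham mice without Cre (WT sham, n = 4) were compared with mice without Cre that received angiotensin II (AngII), a vasoconstrictor peptide hormone, at 490 ng/kg/min for 14 days from an implanted pump (WT AngII, n = 4). The last group received the same infusion and carried Cre under the promoter of Tagln, a smooth muscle gene, which deletes Sphk1 in cells that use this promoter (KO AngII, n = 5). Sham KO mice were not analysed here, so the deletion was compared under infusion only. Each tissue thus gave 13 libraries, 26 in all.

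Interferons are secreted proteins that cells release on sensing viral or misplaced nucleic acid (type I) or that T cells and natural killer cells release on activation (type II, Ifng). Type I interferons bind the receptor pair Ifnar1 and Ifnar2, and the kinases Jak1 and Tyk2 then activate a complex that holds Stat2 and Irf9 and binds the interferon-stimulated response element (ISRE) before its target genes. Ifng binds Ifngr1 and Ifngr2 and acts on its target genes through the gamma-activated sequence (GAS). The genes switched on this way block viral RNA, tag proteins with Isg15, load peptides for T cells and call T cells in through chemokines, and in arteries they are used both by the vessel wall and by the leukocytes that enter it.

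The 38 genes were grouped by role. The RNA-binding Ifit proteins are Ifit1, Ifit2 and Ifit3. Isg15, its deconjugating enzyme Usp18 and the ubiquitin and Isg15 ligase Trim25 form the conjugation group, and Oas1a, Oas2, Oas3 and Oasl2 form the oligoadenylate synthetase family. Irf1, Irf7, Irf9 and Stat2 are transcription factors. Ifih1, Ddx58 and Dhx58 sense RNA, and Zbp1 senses Z-form nucleic acid. The further antiviral effectors are Rsad2, Mx1, Mx2, Bst2, Rtp4, Xaf1, Ifi35, Ifi44 and Parp14. Gbp2, Gbp3, Gbp7, Igtp, Irgm1 and Ifi47 are interferon-inducible GTPases that act on membranes around intracellular microbes. Cxcl9 and Cxcl10 are chemokines for T cells, and Psmb8, Psmb9 and Tap1 make and transport peptides for MHC class I.

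Promoter sequence was available for 30 of the 38 genes, as 34 RefSeq windows from 250 bases before to 50 bases after a transcription start (build GRCm38.p6). The ISRE was searched as GAAANNGAAA on both strands. At least 1 match lay in 16 of the 34 member windows (47.1%) and in 1131 of all 32851 windows of the same length (3.44%). The GAS was searched as TTCNNNGAA, which reads the same on both strands, and lay in 8 member windows (23.5%) and in 2726 of all windows (8.3%). In 1 window, that of Bst2, an ISRE and a GAS match overlapped. The windows of Psmb9 and Tap1, which start on opposite strands of chromosome 17, overlap each other and held neither motif.

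Of the 5 members with the smallest p after AngII in the aorta and the 5 with the smallest p between the sham tissues, 4 had an ISRE match before the start, and those stretches are shown because these genes lead the comparisons described here. Each is written 5′ to 3′ in the direction of the gene with the matches in capitals; adjacent matches share bases. The Oas1a stretch is chr5:120907526-120907565 (minus strand), with matches beginning 20 and 14 bases before the start. That of Irgm1 is chr11:48871421-48871470 (minus strand), with matches at 30 and 24 bases. That of Isg15 is chr4:156200855-156200916 (minus strand), with 3 matches at 78, 72 and 66 bases. That of Ifit3 is chr19:34583353-34583436 (plus strand), where both matches, at 156 and 122 bases, lie on the opposite strand and so read as the reverse complement.
Oas1a: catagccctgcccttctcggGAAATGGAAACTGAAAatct
Irgm1: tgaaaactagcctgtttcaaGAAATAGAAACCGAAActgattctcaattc
Isg15: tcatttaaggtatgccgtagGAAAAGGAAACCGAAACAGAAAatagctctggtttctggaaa
Ifit3: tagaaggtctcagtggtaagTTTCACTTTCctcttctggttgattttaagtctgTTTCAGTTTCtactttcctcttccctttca
In Ifih1 and Ddx58 the match lay after the start, and in Ifi47, Cxcl9, Oasl2 and Trim25 these letters were not in the window. A match describes the sequence only; binding was not measured.

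The aortic libraries held 23.49 to 32.25 M reads counted in genes, and the mesenteric ones 17.54 to 30.05 M. Levels are given as CPM, counts scaled to a common library size (TMM factors), within each tissue unless stated, and log2 fold changes come from edgeR's quasi-likelihood fit with its standard error (SE). A gene was called when its Benjamini-Hochberg adjusted p, taken over all genes tested, was below 0.05. Sphk1, the targeted gene, stood at 1.71 to 3.29 CPM in the KO aortas against 11.5 to 24.2 CPM in the WT AngII aortas. In the mesenteric arteries it stood at 2.89 to 4.94 CPM against 9.84 to 17.8 CPM, so no KO library overlapped a WT AngII library of its tissue. Of 12 markers of each of smooth muscle and endothelium, none was at 0 over a group. The mesenteric libraries also held 15.4 to 76196 CPM of 12 gut and pancreas markers, against 2.94 to 6.86 CPM in the aortas. P-values rest on the spread between libraries within groups, estimated over all groups of a fit together.

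Of the 26 libraries, 3 stood apart in these genes, as the heat map of all members shows. WT AngII aorta 1 was the highest of the 13 aortic libraries for 35 of the 38 members (92.1%), against 11.2% of the 16863 genes tested. Its members lay at a median of 2.32 times the middle of the other WT AngII aortas, and 25 of them at over 2 times, while the same ratio over all genes was 1.00. KO mesenteric library 3 was the highest of 13 for 25 members (65.8%; 23% of all genes) and WT AngII mesenteric library 1 for a further 8 (21.1%; 5.41% of all genes). The WT AngII libraries of the 2 tissues that stood apart carry the same replicate number; the deviations of these 2 libraries from their group means correlated at r = 0.122 over genes, and the labels do not say whether they come from 1 mouse. The 3 libraries were singled out after their values in these genes were seen, and every comparison they enter is given with and without them below. Leaving them out moves the members by that choice. In those fits the members' share set against that of all genes is therefore no test.

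**Figure D1:**
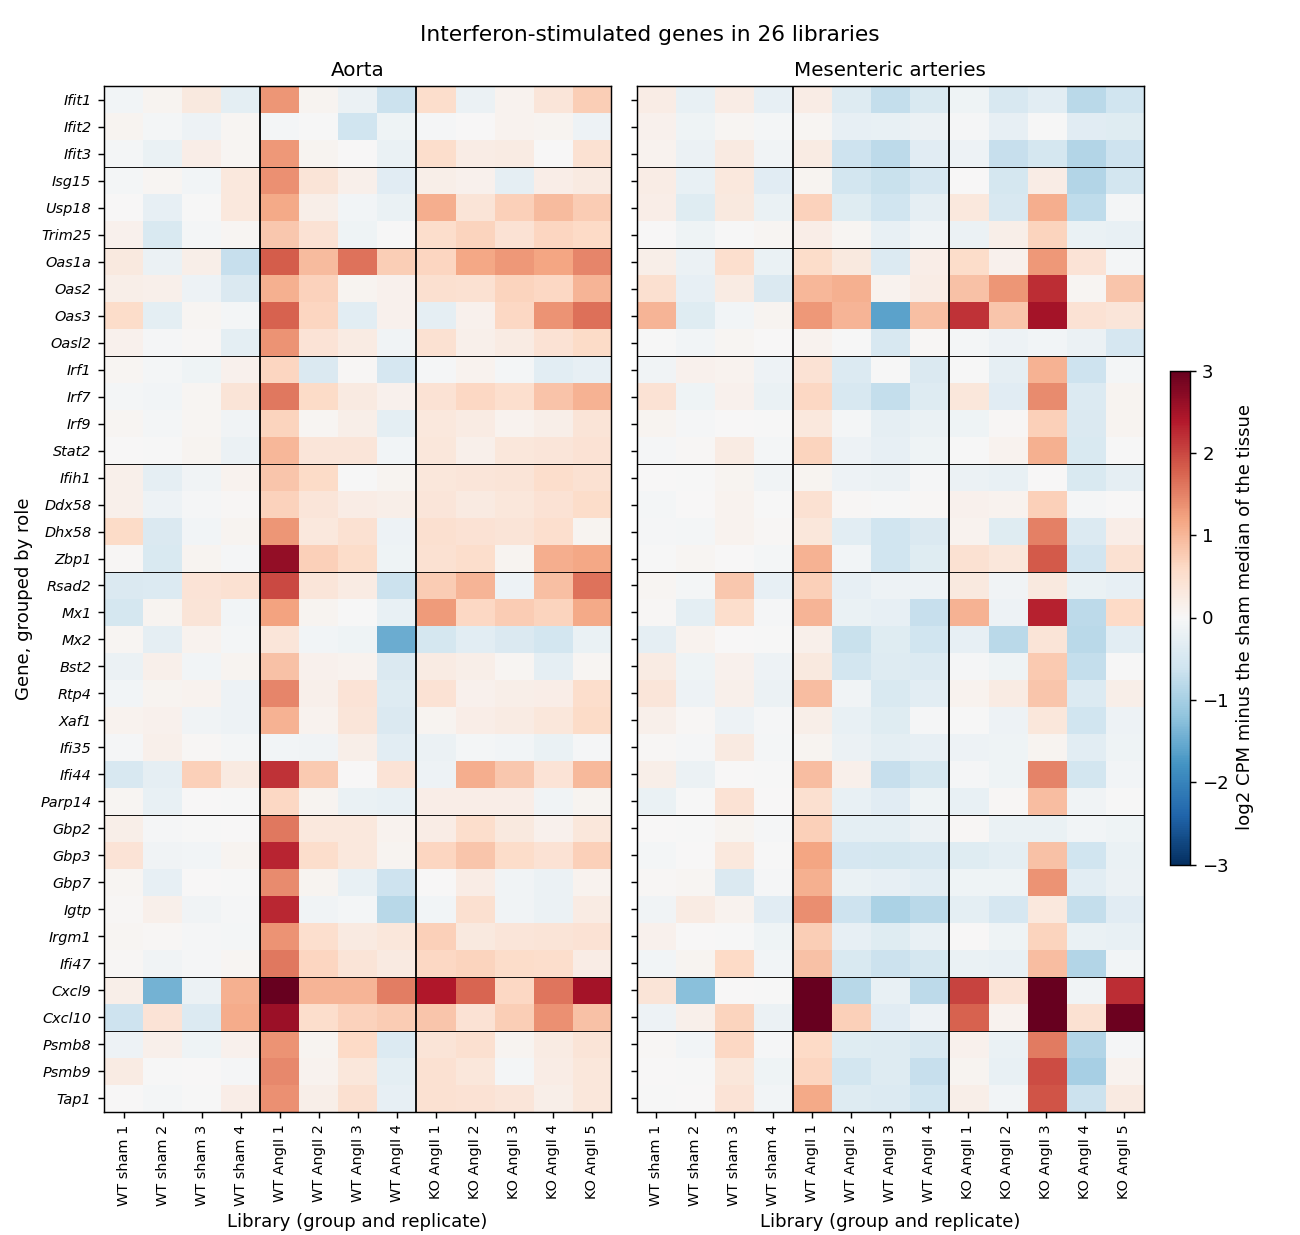
Heat map of the 38 genes (rows, grouped by role) in 13 aortic and 13 mesenteric libraries (columns, by group and replicate). Colour is log2 CPM minus the median of the 4 sham libraries of the same tissue, from -3 (blue) to 3 (red). WT AngII replicate 1 in the aorta, and WT AngII replicate 1 and KO AngII replicate 3 in the mesenteric arteries, are red across most rows.

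Of the 7 comparisons made, that between the sham tissues called the most members. Of the 38 genes, 34 were higher in the sham mesenteric arteries than in the sham aorta and 0 were lower, where 20.7% of the 18520 genes tested were called higher. The members' median log2 difference was 1.6, against 0.02 over all genes. This comparison used none of the 3 libraries named above except through the shared estimate of spread, and without them the count was again 34 (median 1.58).

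By role, the Ifit group gave 2 of 3. Ifit1 stood at 4.32 ± 0.749 CPM in the sham aortas (mean ± SD, n = 4) and at 24.4 ± 4.29 CPM in the sham mesenteric arteries on the scale of the 26 libraries, higher by 2.5 ± 0.314 (SE; edgeR adjusted p = 9.2e-07). Ifit3 was higher by 2.33 ± 0.267, and Ifit2 differed by 0.13 ± 0.105 and was not called (adjusted p = 0.335). All 3 conjugation genes were higher, Isg15 by 2.38 ± 0.293 (SE; edgeR adjusted p = 6.09e-07), Trim25 by 1.5 ± 0.185 and Usp18 by 1.68 ± 0.357. Among the oligoadenylate synthetases, Oas1a was higher by 2.21 ± 0.311 and Oasl2 by 1.8 ± 0.205. Oas2 (-0.07 ± 0.34, adjusted p = 0.902) and Oas3 (0.88 ± 0.649, adjusted p = 0.302) were not called, so the members of this family did not all pass.

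All 4 transcription factors were higher, with Irf7, the factor that amplifies type I interferon, furthest apart. It stood at 4.32 ± 0.745 CPM in the sham aortas and 21.2 ± 4.36 CPM in the sham mesenteric arteries, a log2 difference of 2.29 ± 0.372 (SE; edgeR adjusted p = 3.11e-05). Irf1, Stat2 and Irf9 were higher by 1.04, 0.81 and 0.59. All 4 sensors were higher, and Ifih1 (Mda5), which binds long double-stranded RNA, had the smallest p of the 38. Ifih1 stood at 11.3 ± 1.56 against 36 ± 1.8 CPM, higher by 1.67 ± 0.139 (SE; edgeR adjusted p = 1.07e-09), and Zbp1, Dhx58 and Ddx58 were higher by 2.34, 1.67 and 0.72.

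All 9 further antiviral effectors were higher in the mesenteric arteries. Ifi44, an antiviral protein, showed the largest log2 difference of the 38, 3.32 ± 0.511 (SE, edgeR adjusted p = 1.53e-05). Ifi44 started from a low level, 0.772 ± 0.321 CPM in the sham aortas against 7.69 ± 0.832 CPM in the sham mesenteric arteries. Rsad2 (viperin), which makes a chain-terminating nucleotide, followed within the group at 2.72 ± 0.448. Mx1 was higher by 1.97, Xaf1 by 1.5, Rtp4 by 1.48, Parp14 by 1.46, Bst2 (tetherin, which holds budding virus at the membrane) by 1.38, Mx2 by 1.25 and Ifi35 by 0.76. All 6 GTPases were higher, Gbp3 by 2.48 ± 0.44, Ifi47 by 2.15, Igtp by 1.73, Gbp2 by 1.59, Gbp7 by 1.32 and Irgm1 by 0.71. Of the chemokines, Cxcl10 was higher by 3.14 ± 0.957 (SE; edgeR adjusted p = 0.012), whereas Cxcl9 differed by 1.3 ± 1.02 and was not called (adjusted p = 0.336). The antigen-processing genes Psmb8, Psmb9 and Tap1 were higher by 1.88, 1.62 and 1.27.

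**Figure D2:**
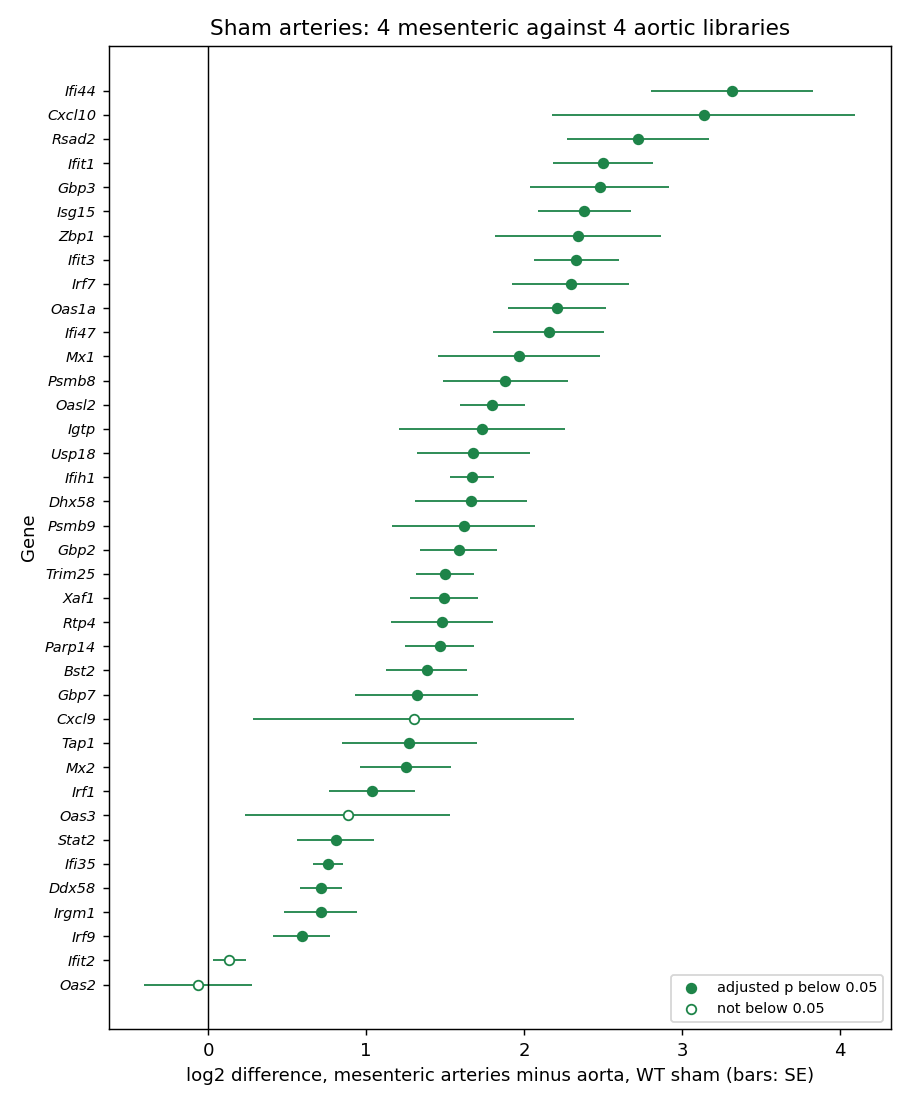
Log2 difference of each of the 38 genes between 4 sham mesenteric and 4 sham aortic libraries (x axis; bars are SE; filled circles, adjusted p below 0.05). The 34 filled circles all lie above 0; Oas3, Cxcl9, Ifit2 and Oas2 are open.

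The other genes of the pathway did not share one direction. Of 95 further interferon pathway genes listed, 80 could be tested, of which 41 were higher in the sham mesenteric arteries and 6 lower, where 20.7% and 17.7% of all genes were. Among 48 further interferon-stimulated genes 33 were higher and 0 lower, led by Parp10 (1.32 ± 0.159 SE, edgeR adjusted p = 4.33e-07), the immunoproteasome subunit Psmb10 (1.79 ± 0.217), Cmpk2 (0.97 ± 0.121), Parp12 (0.74 ± 0.117), Uba7, the Isg15-activating enzyme (1.75 ± 0.296), and Oasl1 (2.6 ± 0.45). Among 9 receptors and kinases 1 was higher and 1 lower: Ifngr1, the ligand-binding chain of the Ifng receptor, was higher by 0.59 ± 0.104 and its partner Ifngr2 lower, at a log2 difference of -1.07 ± 0.108 (SE; edgeR adjusted p = 2.93e-08). Ifnar1 (-0.09 ± 0.0958, adjusted p = 0.515) and Ifnar2 (0.28 ± 0.153, adjusted p = 0.161) were not called. The other 5 lower genes were the STAT and cytokine signalling inhibitors Pias1 (-0.59), Ptpn2 (-0.65) and Socs1 (-1.29), the adaptor Ticam1 (-0.30) and the RNA sensor Tlr7 (-1.44).

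Cell type markers also differed between the 2 vessels in their range. On the same scale, 12 endothelial markers summed to 1140 to 1274 CPM in the sham aortas and 4303 to 4659 CPM in the sham mesenteric arteries, and 12 lymphocyte markers to 2.08 to 7.86 and 10.9 to 19 CPM. The 12 gut and pancreas markers summed to 3.01 to 6.6 and 39.9 to 30986 CPM, and 8 natural killer markers to 0.37 to 0.63 and 1.06 to 3.23 CPM. Adipocyte markers overlapped, at 828 to 2416 and 666 to 1548 CPM. Macrophage markers lay the other way, at 592 to 722 CPM in the aorta and 224 to 433 CPM in the mesenteric arteries, fibroblast markers at 8837 to 10375 and 4732 to 7433 CPM, and smooth muscle markers overlapped, at 40430 to 49104 and 39795 to 48303 CPM. None of these markers' part in the tissue difference was tested, and in bulk RNA more cells of a type and more RNA per cell cannot be told apart. The count data of the tissues also differ in the form of their gene identifiers, and whether both were processed in 1 run is not stated. Any difference in processing could not be told apart from tissue. The labels do not say whether the same mice gave both vessels.

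The ligands themselves were scarcely read. Of 12 interferon genes, Ifna1, Ifna4, Ifna5, Ifna6, Ifna9, Ifnk and Ifnl3 had 0 reads in all 26 libraries and none of the 12 passed the filter. Ifnb1 had 0 reads in the aorta and 3 in the mesenteric arteries, 2 of them in WT sham replicate 3. Ifng had 3 reads over the 13 aortas and 12 over the 13 mesenteric libraries, 8 of the latter in KO replicate 3, one of the libraries set apart above. At 17.54 to 32.25 M counts a library these numbers are too few to compare groups.

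After AngII in the aorta, 7 of the 38 genes rose and 0 fell. They were Cxcl9, Zbp1, Oas1a, Ifi47, Irgm1, Stat2 and Ddx58, 18.4% of the members, where 14.7% of the 16863 genes tested rose, so with all libraries the share called is near the background. The median log2 fold change of the members was 0.51 against 0.00 over all genes, and 35 of 38 lay above 0. Of the 38, 16 had an unadjusted p below 0.05, each of them above 0. Over all genes, 14.7% rose and 10.8% fell at an adjusted p below 0.05, so the share at an unadjusted p is larger still. The 16 are given without that share and are no measure against all genes. DESeq2 called 10 higher and limma voom 4, and both called 0 lower.

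The Ifit genes were not among the 7. Ifit2 (ENSMUSG00000045932), an RNA-binding antiviral protein, stood at 33.9, 30.6, 28.8 and 33 CPM among the sham libraries, 30.7, 31.3, 21 and 29.1 CPM among the WT AngII libraries and 31, 32.1, 34, 33.4 and 28.8 CPM among the KO libraries. WT AngII replicate 3 was the lowest of the 13, and the groups overlapped. Its log2 fold change after AngII was -0.17 ± 0.108 (SE; edgeR adjusted p = 0.267), Ifit1 gave 0.34 ± 0.352 and Ifit3 0.44 ± 0.274.

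In the conjugation group, Isg15 (ENSMUSG00000035692), the ubiquitin-like modifier, stood at 2.1, 2.28, 2.06 and 2.75 CPM among the sham libraries, 5.77, 2.9, 2.42 and 1.72 CPM among the WT AngII libraries and 2.46, 2.38, 1.81, 2.54 and 2.65 CPM among the KO libraries. In WT AngII replicate 1 it was at over 2 times the level of every sham library, while replicate 4 of the same group was the lowest aorta of all. The log2 fold change was 0.48 ± 0.292 (SE; edgeR adjusted p = 0.251). Usp18 (ENSMUSG00000030107), which removes Isg15 and dampens Ifnar signalling, stood at 1.95, 1.62, 1.95 and 2.47 CPM among the sham libraries, 4.34, 2.21, 1.84 and 1.69 CPM among the WT AngII libraries and 4.24, 2.57, 3.23, 3.85 and 3.38 CPM among the KO libraries. All 5 KO libraries and WT AngII replicate 1 lay above every sham library, and the other 3 WT AngII libraries lay within the sham range. Usp18 gave 0.34 ± 0.277 after AngII and Trim25 0.39 ± 0.175 (adjusted p = 0.118).

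Oas1a (ENSMUSG00000052776), whose product makes the oligoadenylates that activate RNase L, stood at 1.34, 0.958, 1.23 and 0.643 CPM among the sham libraries, 3.97, 2.17, 3.51 and 1.87 CPM among the WT AngII libraries and 1.73, 2.5, 2.78, 2.54 and 3.11 CPM among the KO libraries. Every infused aorta, WT or KO, lay above every sham aorta. Oas1a rose after AngII by 1.46 ± 0.29 (SE; edgeR adjusted p = 0.00211), the smallest p of the 38, and without WT AngII replicate 1 it still rose, by 1.26 (adjusted p = 0.00706 by edgeR). Oas2 (0.59 ± 0.219), Oas3 (0.76 ± 0.539) and Oasl2 (0.62 ± 0.244) were not called.

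Among the transcription factors, Stat2 (ENSMUSG00000040033), which gives the ISRE-binding complex its activating domain, stood at 26.9, 26.6, 28.5 and 23.5 CPM among the sham libraries, 53.3, 34.3, 34.4 and 25.4 CPM among the WT AngII libraries and 33.9, 29.9, 33.6, 34.4 and 36.4 CPM among the KO libraries. The highest aorta was WT AngII replicate 1, replicate 4 lay within the sham range, and all 5 KO libraries lay above every sham library. Stat2 rose by 0.48 ± 0.164 (SE; edgeR adjusted p = 0.0441), but without WT AngII replicate 1 the log2 fold change was 0.25 and it was not called (adjusted p = 0.118). Irf7 (ENSMUSG00000025498) stood at 3.76, 3.72, 4.12 and 5.18 CPM among the sham libraries, 11.8, 5.92, 4.77 and 4.33 CPM among the WT AngII libraries and 5.36, 6.05, 5.6, 7.14 and 8.21 CPM among the KO libraries. Again WT AngII replicate 1 was highest, and WT AngII replicates 3 and 4 lay within the sham range. Irf7 gave 0.68 ± 0.272 (SE; edgeR adjusted p = 0.0814), Irf9 0.20 ± 0.147 and Irf1 0.01 ± 0.206.

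Among the sensors, Ddx58 (ENSMUSG00000040296), the RIG-I helicase that binds 5′-triphosphate RNA, stood at 30.9, 24.8, 26.9 and 28.3 CPM among the sham libraries, 44.4, 35.3, 32 and 31.3 CPM among the WT AngII libraries and 35.3, 33.2, 34.7, 37.1 and 40.6 CPM among the KO libraries. Every infused aorta lay above every sham aorta, by a narrow margin for WT AngII replicates 3 and 4. Ddx58 rose by 0.37 ± 0.108 (SE; edgeR adjusted p = 0.0219), and without WT AngII replicate 1 the value was 0.24 (adjusted p = 0.0727). Zbp1 rose by 1.47 ± 0.509 (SE; edgeR adjusted p = 0.0483), from 1.31 ± 0.219 to 3.66 ± 3.58 CPM (mean ± SD, n = 4 each). Its highest value was 8.99 CPM in WT AngII replicate 1, and without that library its log2 fold change was 0.51 (adjusted p = 0.257). Ifih1 (0.42 ± 0.161) and Dhx58 (0.52 ± 0.284) were not called.

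None of the 9 further antiviral effectors was called. Mx1 (ENSMUSG00000000386), a dynamin-like GTPase that blocks influenza virus and is defective in most laboratory strains, stood at 0.553, 0.884, 1.12 and 0.786 CPM among the sham libraries, 2, 0.882, 0.832 and 0.704 CPM among the WT AngII libraries and 2.12, 1.32, 1.46, 1.37 and 1.92 CPM among the KO libraries. The 5 KO libraries and WT AngII replicate 1 were above every sham library, and the other WT AngII libraries were within the sham range. Mx1 gave 0.41 ± 0.343 after AngII, Ifi44 1.03 ± 0.465, Rsad2 0.79 ± 0.517, Rtp4 0.61 ± 0.294 and Xaf1 0.37 ± 0.231. Bst2, Parp14, Ifi35 and Mx2 gave 0.25, 0.15, -0.10 and -0.16.

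Of the 6 GTPases, 2 rose. Irgm1 (ENSMUSG00000046879), a regulator of the other immunity-related GTPases and of autophagy, stood at 26.6, 26.1, 25.1 and 24.6 CPM among the sham libraries, 65.7, 36.2, 31 and 32.1 CPM among the WT AngII libraries and 41.8, 31.3, 33, 33.4 and 34.4 CPM among the KO libraries. The 4 sham libraries lay within 24.6 to 26.6 CPM and every infused library lay above them. Irgm1 rose by 0.69 ± 0.197 (SE; edgeR adjusted p = 0.0212), and by 0.37 without WT AngII replicate 1 (adjusted p = 0.012 by edgeR). Ifi47 (ENSMUSG00000078920), of the same family, stood at 7.34, 6.74, 7.07 and 7.54 CPM among the sham libraries, 21.6, 11.3, 9.44 and 8.69 CPM among the WT AngII libraries and 11.1, 11.4, 10.5, 10.4 and 8.4 CPM among the KO libraries. Here too every infused library lay above every sham library. Ifi47 rose by 0.83 ± 0.23 (SE; edgeR adjusted p = 0.0164), and by 0.45 without WT AngII replicate 1 (adjusted p = 0.0199 by edgeR).

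Igtp and Gbp2 are described because of that 1 library, a choice made after their values were seen. Igtp (Irgm3), which guards lipid droplets and vacuole membranes, stood at 12.6, 13.7, 11.4 and 11.9 CPM among the sham libraries, 58.7, 11.4, 11.8 and 6.86 CPM among the WT AngII libraries and 11.5, 17.1, 11.5, 10.8 and 14.6 CPM among the KO libraries. The first of the WT AngII aortas lay at 5.15 times the middle of the other WT AngII aortas, and WT AngII replicate 4 was the lowest of the 13. Its log2 fold change was 0.84 ± 0.551 (SE; edgeR adjusted p = 0.303) with that library and -0.31 without it (adjusted p = 0.268). Gbp2 stood at 40.7, 35.6, 36 and 36.6 CPM among the sham libraries, 109, 44.9, 45.2 and 39.1 CPM among the WT AngII libraries and 42.2, 52.6, 44.7, 39.7 and 46.2 CPM among the KO libraries. Again the first WT AngII library was the highest, and replicate 4 lay within the sham range. Gbp2 gave 0.68 ± 0.271 over all libraries and 0.21 without WT AngII replicate 1. Gbp3 (1.01 ± 0.416) and Gbp7 (0.44 ± 0.347) were not called.

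Cxcl9, a T cell chemokine driven mainly by Ifng, had the largest fold change of the 38 after AngII. It rose by 2.38 ± 0.765 (SE; edgeR adjusted p = 0.0389), from 0.221 to 1.57 CPM in the sham libraries to 1.51, 1.52, 2.18 and 11.6 CPM in the WT AngII libraries, so the groups overlapped. The 11.6 CPM was that of replicate 1, and without it the log2 fold change was 1.1 and Cxcl9 was not called (adjusted p = 0.155). Cxcl10 gave 1.3 ± 0.556 (SE; edgeR adjusted p = 0.101). The antigen-processing genes Psmb8, Psmb9 and Tap1 gave 0.56 ± 0.284, 0.50 ± 0.287 and 0.53 ± 0.253 and were not called.

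Without WT AngII replicate 1, the calls among the 38 were thus Oas1a, Ifi47 and Irgm1, the members' median log2 fold change was 0.12 and 25 of 38 lay above 0. These 3 are 7.89% of the members, where 12.4% of all genes rose in that fit. WT AngII replicate 4 had the lowest mean of its group over the 38 genes. Without it, 17 were called, 44.7% of the members, where 15.3% of all genes rose. Replicate 4 is named for its low values in these same genes, so that share is likewise no test against all genes. Whether the share lay below, near or above that of all genes thus turned on single WT AngII libraries. Dropping a sham library left 2 to 5 calls, 2 without replicate 3, 3 without replicate 2, 4 without replicate 1 and 5 without replicate 4. The count was 1, Oas1a alone, when the WT sham and WT AngII libraries were fitted without the KO libraries, and 3 when libraries were scaled by total count alone.

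**Figure D3:**
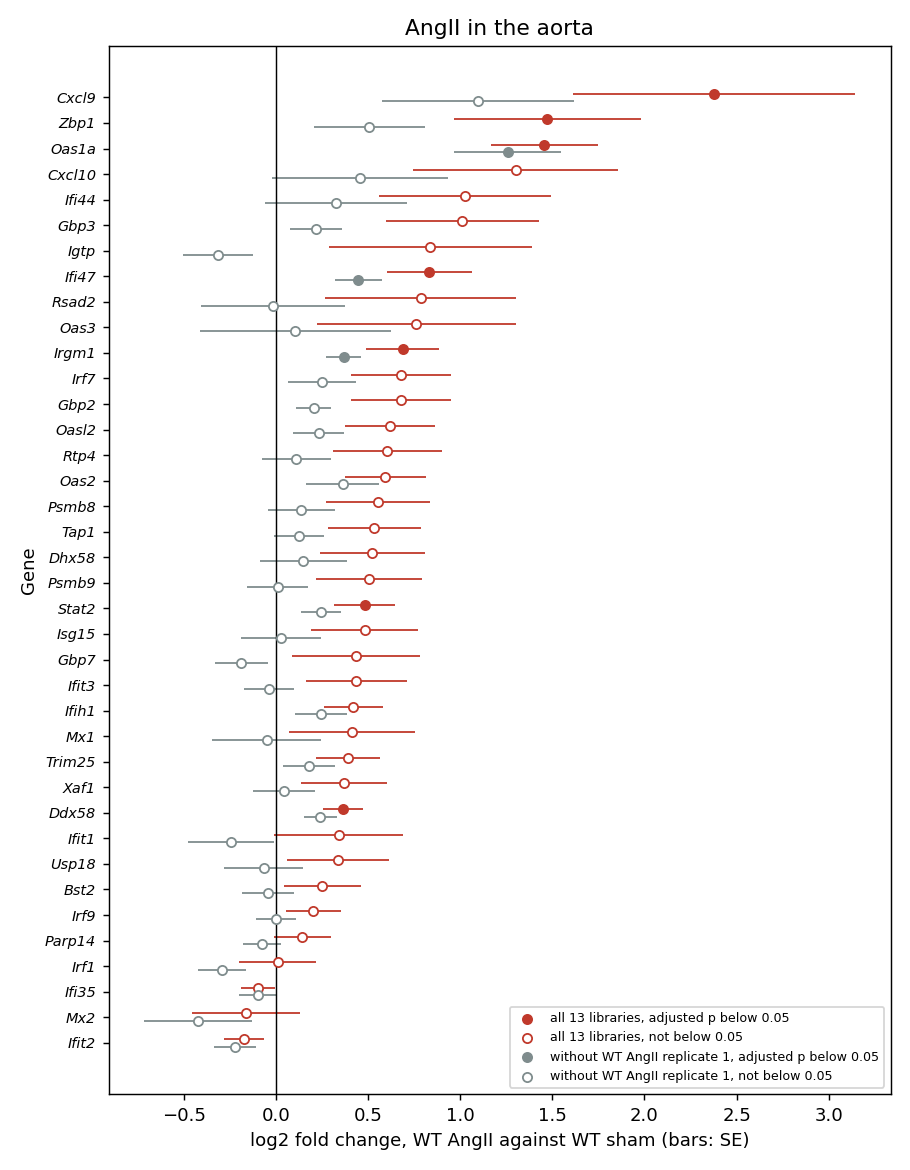
Log2 fold change of the 38 genes in the aorta, WT AngII against WT sham, from the fit of all 13 libraries (red) and without WT AngII replicate 1 (grey); bars are SE and filled circles have an adjusted p below 0.05. With all libraries 7 circles are filled; without that library Oas1a, Ifi47 and Irgm1 are, and Igtp moves from 0.84 to -0.31.

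In the pathway around the members, AngII raised 26 and lowered 2 of 80 tested genes in the aorta, where 14.7% of all genes rose and 10.8% fell. Without WT AngII replicate 1 it raised 18 and lowered 8. The receptor chains Ifnar1 (0.46 ± 0.064 SE, edgeR adjusted p = 0.000141), Ifngr1 (0.23 ± 0.0585) and Ifngr2 (0.30 ± 0.095) rose, and Ifnar2 (0.12 ± 0.082, adjusted p = 0.32) was not called. By adjusted p, the leading increases beside Ifnar1 were the phosphatase Ptpn6 (1.2 ± 0.148), the myeloid factors Irf8 (1.7 ± 0.21) and Irf5 (0.89 ± 0.134), Lgals3bp (1.01 ± 0.158) and Slfn5 (0.91 ± 0.145). Pias1, an inhibitor of STATs, fell by 0.52 ± 0.0692 on the log2 scale, and Irf2, a repressor of ISRE sites, by 0.23 ± 0.0701. Macrophage markers were higher in the same samples: 12 of them summed to 576 to 707 CPM in the sham aortas, 776 to 1054 CPM in the WT AngII and 990 to 1164 CPM in the KO aortas, with none at 0. Fibroblast markers differed more: the 12 summed to 8476 to 10101 CPM in the sham, 21587 to 44745 CPM in the WT AngII and 23911 to 42148 CPM in the KO aortas. Smooth muscle markers were at 38774 to 47832, 22356 to 42157 and 23311 to 39125 CPM. Among the WT AngII aortas, replicate 1, the highest in the members, had the most fibroblast and the least smooth muscle marker RNA (44745 and 22356 CPM, also the extremes of all 13). Replicate 4, the lowest in the members, had the reverse (21587 and 42157 CPM). KO replicate 5 lay close to WT AngII replicate 1 in these sums (42148 and 23311 CPM). Its mean log2 CPM over the members was 3.24, against 4.02 in WT AngII replicate 1. In WT AngII replicates 1 to 4, adipocyte markers summed to 2395, 1650, 1650 and 795 CPM and endothelial markers to 813, 1076, 797 and 1168 CPM. The 8 plasmacytoid dendritic markers, 1 of which was at 0 over the sham and over the WT AngII libraries, summed to 133 to 142, 135 to 285 and 188 to 226 CPM. In the sham aortas this sum was mostly Tcf4, at a mean of 132.5 CPM on the scale of the 26 libraries. Siglech, the next, was at 4.14 CPM. Lymphocyte markers were low throughout, at 2.03 to 7.65, 3.2 to 11.8 and 3.82 to 9.47 CPM, the 11.8 CPM being that of WT AngII replicate 1, and none of the 12 was at 0 over a group. Natural killer markers were lower still, at 0.357 to 0.614, 0.81 to 3.43 and 1.42 to 3.78 CPM, so the infused aortas lay above the sham ones. Neutrophil markers overlapped, at 2.95 to 7.36, 2.68 to 7.5 and 6.43 to 17.4 CPM. The part of these cell types in the members' and the pathway genes' levels was not tested.

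In the aortas of KO mice given AngII, none of the 38 genes was called against WT AngII, in either direction. Over all genes the share called was 0.00593% (1 of 16863), so the comparison separated almost nothing. None of the 38 had an unadjusted p below 0.05, and DESeq2 and limma voom called 0 as well. The median log2 fold change was -0.19, with 11 of 38 above 0. Without WT AngII replicate 1 the median was 0.23, with 37 of 38 above 0, 9 at an unadjusted p below 0.05 (10.6% of all genes) and again 0 called. Without WT AngII replicate 4, 34 of 38 lay below 0 and 9 had an unadjusted p below 0.05 (3.96% of all genes), with 0 called. WT AngII replicates 1 and 4 are singled out by their values in these genes, so these counts are no test against all genes. The sign of the members' difference between KO and WT AngII aortas, and the count at an unadjusted p below 0.05, thus turned on single WT AngII libraries. The same WT AngII libraries enter the comparison with sham, so the values of the 2 comparisons are not independent.

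The 4 members with the smallest p here were Ifit2 (0.18 ± 0.103 SE, edgeR adjusted p = 0.981), Mx1 (0.56 ± 0.316), Usp18 (0.45 ± 0.259) and Isg15 (-0.44 ± 0.276). The 95% interval of the Mx1 difference ran from -0.06 to 1.18, and that of Isg15 from -0.98 to 0.10, on the log2 scale. Stat2 gave -0.13 ± 0.155 and Irf7 -0.05 ± 0.254. Of the 7 genes that rose with AngII, Oas1a gave -0.18 ± 0.261, Ifi47 -0.30 ± 0.214, Irgm1 -0.25 ± 0.185, Ddx58 0.02 ± 0.102, Cxcl9 -0.57 ± 0.657 and Zbp1 -0.64 ± 0.462. Among the 80 pathway genes tested, 0 were called. The KO aortas were even among themselves: the highest library lay a median of 1.35 times above the lowest over the 38 genes, as in the sham aortas (1.31), against 2.82 in the WT AngII aortas (1.3, 1.28 and 1.45 over all genes).

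**Figure D4:**
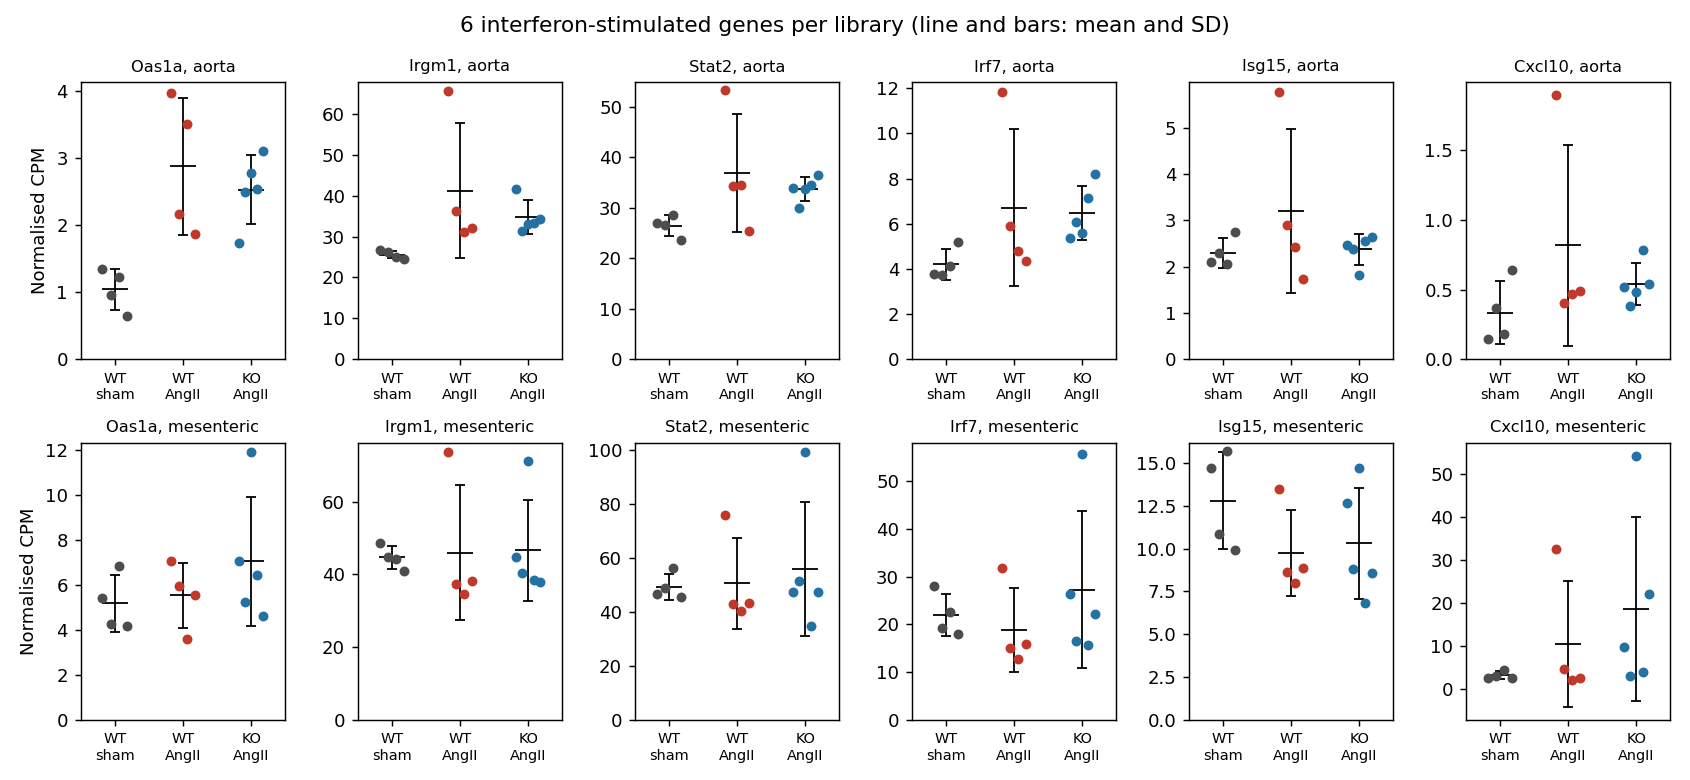
Normalised CPM of 6 of the genes in every library (points) by group, with mean and SD (lines and bars), in the aorta (upper row) and the mesenteric arteries (lower row); the y axes differ. In the aorta every infused library lies above the sham libraries for Oas1a and Irgm1; the single high points are WT AngII replicate 1 in both tissues and KO AngII replicate 3 in the mesenteric arteries.

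In the mesenteric arteries AngII changed none of the 38 genes past the threshold, where 0.183% of all genes were called (32 of 17513, all higher). None of the 38 had an unadjusted p below 0.05 (10.6% of all genes had), and DESeq2 and limma voom also called 0. The median log2 fold change was -0.05, with 18 of 38 above 0. Without WT AngII replicate 1 it was -0.33, with 35 below 0, 6 at an unadjusted p below 0.05 and 0 called. Without both mesenteric libraries that stood apart, 35 lay below 0 and 18 had an unadjusted p below 0.05, where 10.7% of all genes had, and without the 4 poorly aligned libraries (over 10% of records unaligned) these counts were 34 and 20 (12.6% of all genes). In both of these fits 0 members were called. Each fit described here with libraries left out lacks WT AngII replicate 1, which was set apart for its high values in these 38 genes. The members' shift below 0 and their counts in these fits thus follow in part from that choice. They are no test against all genes.

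Ifit3 (ENSMUSG00000074896) stood at 58.7, 48.2, 65.6 and 49.9 CPM among the sham libraries, 64.2, 35, 31.4 and 42.8 CPM among the WT AngII libraries and 48.6, 33.5, 37.7, 29.2 and 35.4 CPM among the KO libraries. In this gene WT AngII replicate 1 lay within the sham range, whereas the other 3 WT AngII libraries lay below it. Its log2 fold change was -0.36 ± 0.213 (SE; edgeR adjusted p = 0.572). Isg15 stood at 14.7, 10.9, 15.7 and 9.93 CPM among the sham libraries, 13.5, 8.65, 7.97 and 8.86 CPM among the WT AngII libraries and 12.6, 8.78, 14.7, 6.85 and 8.6 CPM among the KO libraries. WT AngII replicates 2, 3 and 4 were below every sham library, and replicate 1 was not. Isg15 gave -0.40 ± 0.255 (SE; edgeR adjusted p = 0.605), and Ifit1 and Ifit2 gave -0.31 ± 0.205 and -0.14 ± 0.1.

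Oas2 (ENSMUSG00000032690) stood at 6.3, 3.81, 5.33 and 3.34 CPM among the sham libraries, 9.07, 9.54, 4.82 and 5.25 CPM among the WT AngII libraries and 8.3, 11.3, 21.2, 4.67 and 8.08 CPM among the KO libraries. The WT AngII libraries overlapped the sham range, and KO replicate 3 was the highest of the 13. It gave 0.61 ± 0.411 after AngII. Irf7 stood at 28.1, 19.2, 22.6 and 18 CPM among the sham libraries, 31.8, 15, 12.7 and 15.9 CPM among the WT AngII libraries and 26.4, 16.4, 55.7, 15.6 and 22.2 CPM among the KO libraries. WT AngII replicates 2 to 4 were below every sham library, WT AngII replicate 1 was above them, and KO replicate 3 was the highest of all. Stat2 stood at 46.5, 48.8, 56.2 and 45.5 CPM among the sham libraries, 75.9, 43, 40.3 and 43.4 CPM among the WT AngII libraries and 47.2, 51.5, 99.2, 34.9 and 47.3 CPM among the KO libraries, with the same order. Irf7 gave -0.22 ± 0.399 and Stat2 0.04 ± 0.289 after AngII.

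Of the sensors, Ifih1 (ENSMUSG00000026896) was even, at 38.1, 37, 39.5 and 34.7 CPM among the sham libraries, 39.5, 33.8, 33.3 and 36.8 CPM among the WT AngII libraries and 33.1, 32.1, 38.1, 27.1 and 31.2 CPM among the KO libraries. Here the libraries that stood apart lay at the level of the sham libraries, and KO replicate 4 was the lowest. Dhx58 (ENSMUSG00000017830), a regulator of the other RNA helicases, stood at 8.43, 8.3, 9.3 and 8.81 CPM among the sham libraries, 10.9, 6.87, 5.62 and 6.32 CPM among the WT AngII libraries and 9.28, 6.66, 24.8, 6.41 and 9.97 CPM among the KO libraries. KO replicate 3 was far above the rest, and 3 WT AngII libraries were below every sham library. After AngII, Ifih1 gave -0.06 ± 0.0953 and Dhx58 -0.23 ± 0.382.

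Mx1 stood at 3.36, 2.67, 4.77 and 3.18 CPM among the sham libraries, 6.73, 2.84, 2.75 and 2 CPM among the WT AngII libraries and 6.81, 2.94, 16.6, 1.88 and 5.03 CPM among the KO libraries. The groups overlapped, and KO replicate 3 lay at 4.17 times the middle of the other KO libraries. Ifi35 (ENSMUSG00000010358), an interferon-induced leucine zipper protein, had the smallest p of the 38 after AngII here, -0.21 ± 0.105 (SE; edgeR adjusted p = 0.501). It stood at 43.1, 41.1, 50.5 and 40.2 CPM among the sham libraries, 44.2, 37.1, 34.4 and 35.4 CPM among the WT AngII libraries and 38.1, 38.4, 44.6, 33.8 and 38.2 CPM among the KO libraries. WT AngII replicate 1 again lay within the sham range and the other 3 below it.

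Cxcl10 (ENSMUSG00000034855), the chemokine that binds Cxcr3 on T cells, varied widely between libraries. It stood at 2.51, 3.12, 4.48 and 2.48 CPM among the sham libraries, 32.4, 4.68, 2.19 and 2.49 CPM among the WT AngII libraries and 9.7, 3.01, 54.3, 3.86 and 22.1 CPM among the KO libraries. WT AngII replicate 1, KO replicates 3 and 5 and, less so, KO replicate 1 were high, and the rest lay between 2.19 and 4.68 CPM. The log2 fold change after AngII was 1.72 ± 1.01 (SE; edgeR adjusted p = 0.567).

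Deletion of Sphk1 under infusion also changed none of the 38 genes past the threshold in the mesenteric arteries, where 0.00571% of all genes were called (1 of 17513). None of the 38 had an unadjusted p below 0.05, and DESeq2 and limma voom called 0. The members with the smallest p were Dhx58 (0.62 ± 0.366 SE, edgeR adjusted p = 0.798), Ifih1 (-0.15 ± 0.0903), Mx1 (0.90 ± 0.565) and Oas2 (0.58 ± 0.39), and Isg15, Stat2 and Irf7 gave 0.08 ± 0.242, 0.15 ± 0.274 and 0.54 ± 0.381. The 95% interval of Dhx58 ran from -0.10 to 1.34 on the log2 scale. The median over the 38 was 0.13; it was -0.10 without KO replicate 3, 0.5 without WT AngII replicate 1 and 0.16 without both. The count at an unadjusted p below 0.05 was 1, 9 and 6 in these fits, with 0 called. Each of these fits, and the next, lacks libraries set apart for their values in these genes. The counts are therefore no test against all genes. Without the 4 libraries in which over 10% of records were not aligned (WT AngII replicate 1, KO replicates 2, 3 and 4), Cxcl9 alone was called, higher in KO by 2.79 ± 0.41 (edgeR adjusted p = 0.0298), and 14 of the 38 had an unadjusted p below 0.05 (7.7% of all genes). In that fit of 2 KO and 3 WT AngII libraries, 8 of 12 lymphocyte markers were called higher too, and their log2 fold changes ran from 1.98 to 3.85; their part was not tested. Among the 80 pathway genes tested, none was called after AngII or with the deletion.

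The mesenteric libraries that stood apart shared most of their high members: 15 lay at over 2 times the middle of their group in WT AngII replicate 1, 19 in KO replicate 3 and 12 in both. Records not aligned were 12% in WT AngII replicate 1, which also had the fewest gene counts (17.54 M), and 14.7% in KO replicate 3. They were 11.4% and 14.2% in KO replicates 2 and 4, which did not stand apart. In WT AngII replicate 1 the chemokines were furthest up, Cxcl9 at 21 CPM and Cxcl10 at 32.4 CPM, 16.3 and 13 times the middle of the other 3 libraries. The GTPases followed, at 1.98 to 4.63 times, led by Igtp (116.1 CPM) and Gbp3 (139.2 CPM), and the Ifit genes lay at 1.2 to 1.83 times. In KO replicate 3 the chemokines lay at 7.75 and 8 times the middle of the other 4 KO libraries and the antigen-processing genes Psmb8, Tap1 and Psmb9 at 3.2, 3.55 and 4.1 times. The Ifit genes lay at 1.09 to 1.21 times there, Oasl2 at 1.06 and Gbp2 at 0.94, so KO replicate 3 was not high in every member.

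These libraries also held the most lymphocyte marker RNA. The 12 markers summed to 734 CPM in KO replicate 3 and 188 CPM in WT AngII replicate 1, to 91 and 92.6 CPM in KO replicates 1 and 5, and to 9.33 to 23.7 CPM in the other 9 mesenteric libraries. Macrophage markers were at 2341 CPM in KO replicate 3, 861 CPM in KO replicate 2 and 822 CPM in WT AngII replicate 1, against 232 to 595 CPM in the rest. In the aorta, WT AngII replicate 1 was the highest of the 13 in lymphocyte markers at 11.8 CPM, a sum below that of 10 of the 13 mesenteric libraries. The same library had the highest plasmacytoid dendritic sum (285 CPM), which in the sham aortas was mostly the 1 gene Tcf4. It was also the highest in fibroblast markers (44745 CPM) and the lowest in smooth muscle markers (22356 CPM). Its mean log2 CPM over the 38 genes was 4.02 against 2.53 to 3.24 in the other 12 aortas. The 3.24 was that of KO replicate 5, whose fibroblast and smooth muscle sums were close to it (42148 and 23311 CPM). What part these cells have in the members' levels was not tested.

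**Figure D5:**
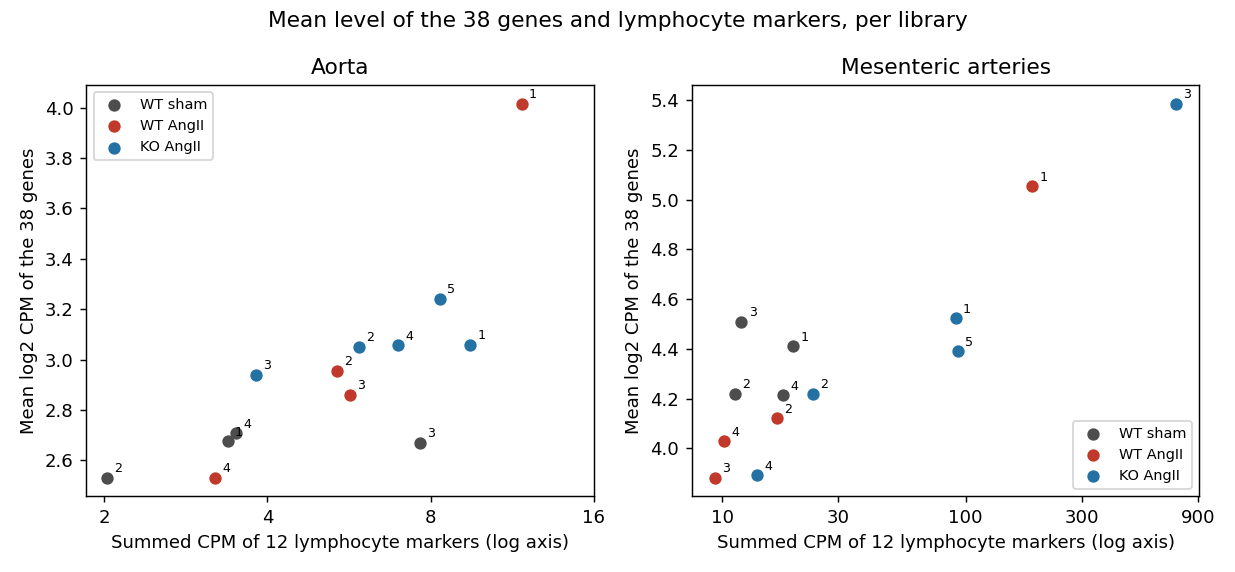
Mean log2 CPM of the 38 genes (y axis) against the summed CPM of 12 lymphocyte markers (x axis, log scale) for each library, numbered by replicate and coloured by group. In the mesenteric arteries KO AngII 3 and WT AngII 1 are highest on both axes; in the aorta WT AngII 1 is highest on both, at a marker sum of 11.8 CPM.

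The tissues were last compared in their response. For the difference of the AngII effect (mesenteric minus aorta), none of the 38 genes was called by edgeR, where 2.34% of 18520 genes were called. The members' median was -0.54 against -0.01 over all genes, 35 of 38 lay below 0, and 6 had an unadjusted p below 0.05. The 6 are given without the share of all genes in that fit. In the 2 fits below with libraries left out, that share was 16.7% and 14.7%. Oas1a had the smallest p, with a difference of -1.37 ± 0.421 (SE; edgeR adjusted p = 0.0864), followed by Ifih1 (-0.49 ± 0.192), Oasl2 (-0.69 ± 0.282) and Isg15 (-0.89 ± 0.398). DESeq2 called Oas1a (-1.35, adjusted p = 0.0414), and limma voom called 0. Without the 2 mesenteric libraries that stood apart, edgeR called 3 members lower, Ifi47 (-1.51 ± 0.331), Oas1a (-1.48 ± 0.387) and Irgm1 (-0.96 ± 0.236; adjusted p from 0.0167 to 0.0409). These are 7.89% of the members, where 1.71% of all genes were called lower, and 22 of the 38 had an unadjusted p below 0.05 (16.7% of all genes). Without WT AngII aorta 1 as well, the 4 called were Irgm1 (-0.64 ± 0.125), Ifi47 (-1.13 ± 0.241), Gbp3 (-0.78 ± 0.182) and Gbp2 (-0.46 ± 0.114), 10.5% of the members against 1.14% of all genes, and 14 had an unadjusted p below 0.05 (14.7% of all genes). The libraries left out had been set apart for their high values in these same 38 genes. The members' shares in these 2 fits therefore follow in part from that choice and are no test against all genes. With all libraries, of the 80 pathway genes tested, Pias1 was higher (0.50 ± 0.101) and Slfn5 (-1.07 ± 0.257) and Isg20 (-1.07 ± 0.282) lower in the difference of the AngII effect.

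For the difference of the KO effect between the tissues, 0 of the 38 and 0.0% of all genes were called by edgeR, with 0 members at an unadjusted p below 0.05 and 0 called by DESeq2 or limma voom. The median was 0.32, and -0.04 without the 3 libraries that stood apart, where 2 members had an unadjusted p below 0.05. That count was 9 without WT AngII mesenteric library 1 alone (5.42% of all genes), again with 0 called. The libraries left out had been set apart for their values in these genes, so neither count is a test against all genes. Zbp1 had the smallest p, at 1.21 ± 0.667 (SE; edgeR adjusted p = 0.953). The 26-library fit treats all libraries as separate mice.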

How the data were processed

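Poly(A) RNA of 26 libraries (6 groups in 2 tissues) was read as deposited counts per Ensembl gene, 1 table per library. Per the submitters' processing notes, the authors trimmed with cutadapt, aligned with HISAT2 and counted with HTSeq on GRCm39; versions, the annotation release and the strand setting are not given in the sources used here. HTSeq's summary lines stayed out of library sizes: no feature was hit by 6.63 to 11.1% of records, 0.572 to 14.7% failed to align, and multiple places were matched by 4.82 to 13%. Reads shared between close copies are therefore lost, and Oas1a, Ifit3, the Gbp genes and Igtp, which have such copies, are uncertain in that respect.

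Each tissue was fitted alone (3 groups) and both together (6 groups) with edgeR 4.0.16 under R 4.3.3: filterByExpr, TMM, robust quasi-likelihood F test, Benjamini-Hochberg adjustment over 16863, 17513 or 18520 genes, call below 0.05. Log2 CPM carry a prior count of 2. Alternatives were RLE factors, library size alone, no filter, CPM of at least 1 in at least 4 libraries, DESeq2 1.42.0, limma voom 3.58.1, only the groups compared, the replicate number as a block, each library left out, and 3 sets of libraries left out that were chosen after seeing the data. The fit was tested on simulated data. Pairs of libraries of a group gave a chi-square per degree of freedom of 8.41 to 157 (aortic pairs) and 18 to 232 (mesenteric pairs), so none was a copy. The members, lists and tests were chosen with earlier results of these data known. By rule, every member is named; per-library values are given for the 4 of smallest p in the AngII and KO comparison of a tissue and for Stat2, Irf7 and Isg15; pathway genes are named up to 6 per direction by adjusted p. A listed pathway gene is counted but not reported here by name.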

Additional observations from a re-analysis of the deposited data

Results flagged for a closer look

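In 234 sets of 4 or 5 libraries (each of the 38 genes, and their mean, by group and tissue) 47 had a library far from the others of its group by Dixon's ratio at 95%; chance gives about 1 in 20, and genes of 1 library are not independent. All values are normalised CPM. In the aorta WT AngII replicate 1 was far above its group in 9 genes: Ifit3 (25.6), Zbp1 (8.99), Mx1 (2.00), Gbp2 (109), Gbp3 (49.4), Igtp (58.7), Irgm1 (65.7), Cxcl9 (11.6) and Cxcl10 (1.9). WT sham replicate 1 was far above its group in Psmb9 (7.08). In the mesenteric arteries WT AngII replicate 1 was far above its group in 18 genes: Isg15 (13.5), Irf7 (31.8), Stat2 (75.9), Ddx58 (65.7), Rsad2 (20.4), Bst2 (64.7), Rtp4 (22), Gbp2 (196), Gbp3 (139), Gbp7 (96.1), Igtp (116), Irgm1 (73.8), Ifi47 (56.2), Cxcl9 (21), Cxcl10 (32.4), Psmb8 (64.4), Psmb9 (30.5) and Tap1 (86.1). KO AngII replicate 3 was far above its group in 15 genes: Irf1 (161), Irf7 (55.7), Stat2 (99.2), Ddx58 (79.3), Dhx58 (24.8), Zbp1 (25.8), Ifi44 (22.5), Parp14 (133), Gbp3 (113), Gbp7 (118), Irgm1 (71.1), Cxcl9 (49.3), Psmb8 (126), Psmb9 (76.1) and Tap1 (145). KO AngII replicate 5 was far below its group in Oasl2 (29.9), and WT sham replicate 3 was far above its group in Gbp3 (76.1), Psmb8 (65.7) and Tap1 (52.6).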

How the results depend on the processing

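For the 34 members higher in the sham mesenteric arteries, every alternative run gave 33 or 34. For AngII in the aorta the count of 7 was 3 with library size alone (where the median of all genes moved to -0.13), 3 with no filter, 4 with limma voom, 1 with only the groups compared and 2 to 17 with a library left out; it was 7 with RLE factors, 7 with the stricter filter and 10 with DESeq2. Of the 112 values of the 7 called genes under alternatives, 72 stayed called and 40 lost the call; none changed sign. When the AngII effect was compared between tissues, the count lower was 1 with DESeq2, 0 to 1 with a library left out, 3 without the 2 mesenteric libraries that stood apart, 3 without those with over 10% of records not aligned and 4 without the 3 libraries that stood apart. For KO in the mesenteric arteries, 1 was called higher without the libraries with over 10% not aligned. In the other comparisons no alternative called a member. Same-numbered libraries did not all deviate together: r was over 0.1 in 1 of 12 aortic pairs (-0.289 to 0.102), in 7 of 12 mesenteric pairs (-0.265 to 0.343) and in 3 of 13 pairs across the tissues (-0.118 to 0.133). A library correlated best with its own number in 2 of 12 cases in either tissue and in 12 of 26 across the tissues, a hint from the data and not from the labels, so the numbers were not taken as pairs; with the replicate block 5 members were called after AngII in the aorta, 34 between the sham tissues and 0 elsewhere. Genes near 1 CPM, such as Oas3, Cxcl10, Ifi44 and Mx1 in the aorta, rest on few reads.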
